A study of Caenorhabditis elegans with 45 samples.

Results

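The 3 F1 libraries of the cross between the wild Caenorhabditis elegans strain DL238 and the laboratory strain N2 were examined for genes whose DL238 and N2 alleles differ in transcript abundance inside the same animals. DL238 males were the fathers, and the mothers were N2 animals mutant in fog-2, a gene that hermaphrodites need to make sperm, so that each F1 animal carries 1 genome of each strain. All animals were whole day 1 adult hermaphrodites. The DL238 F1 group (n = 3) was compared allele against allele. Beside it were set the 3 DL238 parental libraries (label wildtype) and the 3 libraries labelled N2, whose genotype label names a fog-2 deletion and whose strain label is CB4108, although the growth protocol describes selfed N2 animals. Genes were included when reads that matched transcripts of only 1 allele of 1 gene, here called allele-specific, numbered 10 or more on average over the DL238 F1 libraries. These were 5873 of the 46932 genes in the allele tables, 5860 of them nuclear and 13 mitochondrial. In all, 19807 genes had any count in the F1 libraries.

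Within a hybrid, both alleles of a gene share the same nucleus, the same transcription factors and the same environment. A difference between them is therefore read as a cis difference, one that is carried by the gene copy or its flanking DNA, whereas a difference between parents that is not seen between the alleles is called trans. Since DL238 was always the father, an effect of parental origin cannot be told apart from one of the strain. C. elegans is a selfing species in which wild strains carry blocks of strongly diverged haplotypes, and large families such as F-box, MATH and BATH, and C-type lectin genes vary much between strains. In whole animals the allele ratio is an average over all tissues that express the gene.

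The DL238 F1 libraries held 64.0, 64.1 and 73.7 M fragments, of which 5.53% to 5.65% were allele-specific. The DL238 allele held 46.1% to 46.2% of those reads, which include reads of mitochondrial genes, inherited from the N2 mother. The DL238 parental libraries, which should hold no N2 allele, gave 99.9% of their allele-specific reads to DL238. Per gene this share was at least 90% for 5808 of 5840 nuclear genes with such reads. For nuclear genes, N2 reads given to the DL238 allele could not be checked, since no N2 library was counted against DL238. The 8 yolk, yolk receptor and oocyte genes summed to between 91887 and 102326 CPM (counts scaled to the library total) in the F1 libraries. Of 9 genes of male neurons, male fluid and the copulatory plug, 8 were under 1 CPM in all 3 groups. plg-1, a mucin gene of the plug, averaged 30.2 CPM in the F1 libraries, 3.67 CPM in DL238 parental libraries and 35.5 CPM in those labelled N2. The 3 F1 libraries differed pairwise by more than sampling noise, with chi-square values of 11.4 to 44.0 per degree of freedom, and were counted as 3 replicates. The labels do not say whether they came from separate crosses, so p-values measure only the spread between these libraries.

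Allelic differences were found in every nuclear chromosome and in both directions. By edgeR's quasi-likelihood test, with p-values adjusted after Benjamini and Hochberg, 435 of the 5873 genes were called (7.41%), 189 with the DL238 allele higher (3.22%) and 246 with the N2 allele higher (4.19%). Of the 5860 nuclear genes 422 were called (7.2%). The DL238 allele was higher for 189 nuclear genes (3.23%) and lower for 233 (3.98%), and all 422 had the same direction in the 3 libraries, as had 42.2% of all nuclear genes tested. The median log2 ratio of DL238 over N2 was -0.01 over all nuclear genes tested, 1.29 over the 189 and -1.27 over the 233. Called differences of at least 2-fold numbered 236 (4.03%), with 106 higher (1.81%) and 130 lower (2.22%) for DL238, and 161 reached 4-fold. In 24 genes DL238 held at least 95% of the allele counts in every library, and in 35 genes at most 5%. The number of calls varied between fits: it was 151, 201 and 145 without F1 replicate 1, 2 and 3, and 655 with DESeq2. It was 1171 in a model that also held the 6 parental libraries, and 426 of the 435 genes were called there, all 426 in the same direction. Of the 117 called genes that are named here, 46, 32 and 53 no longer passed the test without F1 replicate 1, 2 and 3, where 1 residual degree of freedom was left, and none of them changed direction. Among those that passed each time were irg-8, sup-35, skr-11, skr-1, fbxa-192, rho-1, lys-7, wago-1, xpo-2 and fog-2.

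Among genes with at least 100 allele-specific reads per library and at least 90% correct assignment in the DL238 parents, the 6 with the largest ratios towards DL238 were 3 protein-coding genes and 3 annotated pseudogenes. C49G7.13 (chromosome V, 4036111 to 4038054, WBcel235) had DL238 allele counts of 963, 735 and 966, against N2 counts of 0, 0 and 0. Its DL238 counts rest on 137, 98 and 122 allele-specific reads, against 0 for N2, so it was at least 119-fold higher from DL238 when 3 reads over the group are taken as the floor. Only allele-specific reads can show the other allele, so all such bounds, and the ratios with an exact interval, are computed from them and not from the divided counts. C50E3.9 (V, 7598994 to 7600249) had 127, 128 and 111 counts from DL238 and 0 in all 3 libraries from N2, at least 115-fold. No N2 count was seen for either gene in any F1 library. Both are protein-coding genes without a class name. DL238 parental libraries held 15.5 CPM of C49G7.13 and 5.74 CPM of C50E3.9 on average, against 0.0236 and 0.0133 CPM in the libraries labelled N2. The annotated pseudogene Y82E9BL.9 (III, 1333921 to 1335467) had 310, 322 and 368 DL238 counts and 0, 0 and 3 N2 counts. These rest on 335 and 1 allele-specific reads, a ratio of 335 (95% exact binomial interval 59.7 to 13271, counting error only). C14C6.12 (V, 570571 to 571205) had 303, 306 and 343 DL238 counts and 1, 1 and 8 N2 counts. R03H10.12 (II, 4175264 to 4175791) had 306, 286 and 342 DL238 counts and 1, 5 and 10 N2 counts. These are pseudogenes by annotation too. The F-box gene fbxa-113 (V, 20203385 to 20204547) had 329, 277 and 374 DL238 counts and 4, 8 and 4 N2 counts, a log2 ratio of 5.91 ± 0.42 (SE, n = 3 libraries, adjusted p 0.00122). It overlaps the end of fbxb-59, and reads of overlapping genes may be shared because nothing states that strand was used in counting.

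On the N2 side, under the same minima, the 6 leading genes were mitochondrial, and all 13 mitochondrial genes tested were called N2 higher. Mitochondria in C. elegans come from the mother, here N2. The DL238 share was at most 7.04% in any of these genes and libraries, and the log2 ratios ran from -14.51 to -3.79 with a median of -12.54. COX3, a subunit of cytochrome c oxidase, had 7, 22 and 11 DL238 counts, against 80115, 75390 and 91831 N2 counts. The other 5 leading genes were MTCE.12, MTCE.16, MTCE.21, MTCE.33 and MTCE.35. MTCE.35 had 0, 0 and 2 DL238 counts and 14341, 13564 and 15469 N2 counts. These genes serve as a check of the allele assignment and are left out of the counts below.

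Among nuclear genes under the same minima, irg-8 and sup-35 had the largest N2 excess. irg-8 is an infection response gene on chromosome V (415870 to 417706). Its DL238 allele had 14, 6 and 7 counts, against 4385, 4272 and 4927 from N2 (log2 ratio -8.96 ± 0.21, adjusted p 2.05e-05). The DL238 parental libraries averaged 0.0612 CPM of irg-8 and the libraries labelled N2 134 CPM. sup-35 (III, 11115754 to 11119226) encodes the toxin of the maternal-effect toxin-antidote element sup-35/pha-1. It had 0, 0 and 7 DL238 counts and 1144, 1127 and 1297 N2 counts (-8.96 ± 0.62, adjusted p 0.00117). These counts rest on 1 and 411 allele-specific reads, a ratio of 411 towards N2 (95% exact binomial interval 73.4 to 16273), and 1 read of the DL238 parents was available to check its assignment. It had 0.0113 CPM in DL238 parental libraries, against 38.1 CPM in the libraries labelled N2. T07D3.4 (II, 888309 to 890710) had 2, 0 and 0 DL238 counts and 109, 143 and 143 N2 counts, which rest on 2 and 308 allele-specific reads, a ratio of 154 towards N2 (95% exact binomial interval 42.3 to 1277). Its assignment check rests on 2 reads. C50E3.11 (V, 7602256 to 7603486) had 9, 3 and 9 DL238 counts, against 845, 829 and 1055 from N2 (-7.02 ± 0.32). It lies next to C50E3.9, where the imbalance was the opposite. Y39D8A.1 (V, 418732 to 421840), a neighbour of irg-8, had 3, 1 and 2 DL238 counts and 157, 120 and 151 N2 counts (-6.10 ± 0.47). C16A11.5 (II, 4223305 to 4226338) had 18, 24 and 13 DL238 counts and 876, 811 and 959 N2 counts (-5.59 ± 0.28). In each of these 6 genes the counts of the alleles did not overlap. The genes were chosen by their ratios, so this adds no separate support.

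**Figure D1:**
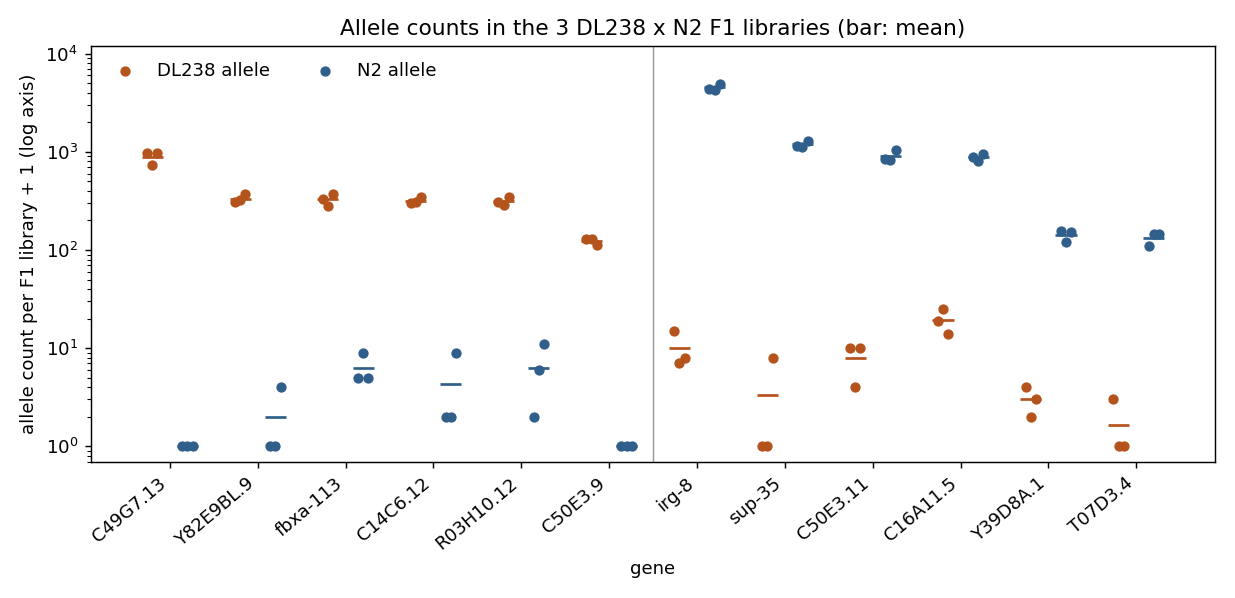
Allele counts plus 1 (log axis) of the 6 genes with the largest called ratios towards DL238 (left of the line) and the 6 nuclear genes with the largest ratios towards N2 (right), among genes with at least 100 allele-specific reads per library and at least 90% correct assignment in the DL238 parents. Each point is an F1 library and each bar a mean. Every N2 point on the left lies at or below 11, and every DL238 point on the right at or below 25, count plus 1.

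Nuclear genes with no DL238 read need a separate remark. In 15 called genes the DL238 allele was at 0 in all 3 F1 libraries, and in 13 the N2 allele was. Y119D3B.21 on chromosome III had 0 DL238 counts in all 3 and 3937 N2 counts in sum, and 0 CPM in DL238 parental libraries, against 53.1 CPM in the libraries labelled N2. Y16E11A.4 on chromosome II had 0 DL238 counts in all 3 and 594 N2 counts in sum. Both have over 100 allele-specific reads per library and fitted ratios beyond those of the nuclear genes above, and were left out there because no read of the DL238 parents checks them. For 15 called genes the DL238 parental libraries held no allele-specific read at all, so the assignment of their DL238 reads could not be checked, and all 15 were called N2 higher. The 7 called genes with a checked share under 90% were also all N2 higher. The check sees only DL238 reads given to N2, so genes that fail it or lack such reads lean to N2 by construction. It cannot fail a gene for N2 reads given to the DL238 allele. In linc-40, a long noncoding RNA gene, 0 of 67 allele-specific reads of the DL238 parents went to the DL238 allele, in set-28 8.58% of 338, and in egl-26 12.5% of 304. The parental libraries did not show an N2 excess of that size for egl-26, at 12.3 CPM in DL238 and 14.7 CPM in N2, or for set-28, at 4.20 and 3.72 CPM.

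Genes with many allele-specific reads gave smaller differences with narrow errors. Among class-named genes with at least 1000 allele-specific reads per library, the leading DL238-higher gene was skr-11 (V, 16389241 to 16389865), a Skp1-related gene annotated as a pseudogene. Its DL238 allele had 1987, 1981 and 2164 counts and its N2 allele 187, 191 and 243, a log2 ratio of 3.31 ± 0.12 (adjusted p 0.000121). The F-box gene fbxa-192 (V, 17640672 to 17650527) followed with 1145, 1122 and 1326 DL238 counts, against 356, 359 and 411 N2 counts (1.67 ± 0.12, adjusted p 0.00122). F-box and Skp1-type proteins form SCF ubiquitin ligases together. The zinc finger gene pzf-1 (V, 15926425 to 15928425) had 1975, 2125 and 2544 DL238 counts and 775, 745 and 875 N2 counts (1.47 ± 0.09). The T-box gene sea-1 (II, 3671908 to 3673593), an autosomal signal element of sex determination, had 1077, 956 and 1164 DL238 counts and 554, 451 and 447 N2 counts (1.14 ± 0.14). The transcription elongation factor gene tcer-1 (II, 7045874 to 7050071), which acts in the longevity of animals without a germline, had 10746, 10476 and 12270 DL238 counts and 5814, 6006 and 6433 N2 counts (0.87 ± 0.05, adjusted p 0.000593). None of these 5 genes had overlapping allele counts. They were chosen by their ratios, so this adds no separate support.

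In the other direction, irg-8 was followed by clec-150 (III, 1002707 to 1006298), a C-type lectin gene, with 750, 741 and 871 DL238 counts and 2010, 1987 and 2482 N2 counts (-1.45 ± 0.09, adjusted p 0.000801). The small GTPase gene rho-1 (IV, 16482781 to 16489021), a regulator of the actin cytoskeleton, had 4543, 4457 and 5089 DL238 counts, against 8855, 9165 and 11253 N2 counts (-1.05 ± 0.06). The polo-like kinase gene plk-3 (IV, 7470860 to 7473209) had 9478, 8946 and 11576 DL238 counts and 16965, 17092 and 19669 N2 counts (-0.85 ± 0.05). The autophagy gene epg-3 (III, 12934717 to 12942288) had 1943, 1757 and 1872 DL238 counts and 2951, 2982 and 3312 N2 counts (-0.73 ± 0.08, adjusted p 0.00645). Of 758 nuclear genes with over 1000 allele-specific reads 11.5% were called, with a median absolute log2 ratio of 0.49. Of 2477 genes with 10 to 100 reads 5.89% were called, at a median of 3.04.

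Of the gene lists examined, that of the F-box proteins, the substrate-binding subunits of SCF ubiquitin ligases, held the largest number of called genes. Of 84 members tested, 8 were called DL238 higher and 7 N2 higher, 17.9% against 7.2% of all nuclear genes, with a median log2 ratio of -0.08. fbxa-30 had 54, 40 and 55 DL238 counts and 0 N2 counts in all 3 libraries, at least 12.0-fold higher from DL238 on its 36 allele-specific reads. fbxa-166 had 92, 91 and 77 DL238 counts and 4, 3 and 2 N2 counts (4.81 ± 0.47). fbxa-80 stood the other way, with 0 DL238 counts in all 3 libraries and 30, 21 and 36 N2 counts, at least 25.7-fold lower from DL238. Neighbouring F-box genes went both ways: fbxa-157 had 133, 134 and 170 DL238 counts and 6, 14 and 21 N2 counts (3.50 ± 0.43), whereas fbxa-156, next to it, had 4, 0 and 3 DL238 counts and 207, 196 and 250 N2 counts (-6.53 ± 0.66), on 2 and 130 allele-specific reads. fbxa-191, annotated as a pseudogene, and its neighbour fbxa-192 were both higher from DL238. fbxa-191 had 768, 746 and 838 DL238 counts and 91, 112 and 120 N2 counts (2.87 ± 0.18). Reads of close paralogs can be split wrongly by the counting, so single members of this family are uncertain. Without F1 replicate 1, 2 and 3 the number of called members was 8, 8 and 6.

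Of the 14 Skp1-related and cullin genes tested, 3 were called DL238 higher and 1 N2 higher (28.6%, against 7.2% of all nuclear genes). skr-1, which encodes the main Skp1 adaptor of SCF ligases, had 5931, 5619 and 6436 DL238 counts and 2257, 2199 and 2552 N2 counts (1.36 ± 0.06, adjusted p 0.000275). Its parents differed the other way, at 116 CPM in DL238 and 149 CPM in N2. The transcripts of its alleles differed by 6.51% in length. skr-18 was called at 0.39 ± 0.08, and skr-4 at -4.80 ± 0.46 with 3, 10 and 7 DL238 counts and 183, 182 and 182 N2 counts.

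MATH and BATH domain genes, whose BTB-containing members are substrate adaptors of cullin 3 ligases, leaned towards N2. Of 31 members tested, 2 were called DL238 higher and 10 N2 higher, 38.7% in all, and the list's median log2 ratio was -0.51. Of the 12 called members, 11 lie on chromosome II, and the number called was 5, 7 and 5 without F1 replicate 1, 2 and 3. bath-5 had 108, 109 and 86 DL238 counts and 892, 685 and 945 N2 counts (-3.05 ± 0.22, adjusted p 0.00128). The neighbours math-26 and math-27, of which math-27 is annotated as a pseudogene, had log2 ratios of -4.69 ± 0.37 and -4.73 ± 0.39. In math-26 there were 12, 27 and 12 DL238 counts and 381, 415 and 475 N2 counts. Another run of neighbours, math-39, math-40 and math-41, was also N2 higher. math-40 had 0 DL238 counts in all 3 libraries and 61, 61 and 115 N2 counts, on 0 and 47 allele-specific reads, at least 15.7-fold lower from DL238. bath-15 on chromosome III had a log2 ratio of -1.37 ± 0.13. The exceptions were bath-27 (0.69 ± 0.11) and the annotated pseudogene math-2, with 54, 50 and 81 DL238 counts and no N2 count, at least 52.7-fold. The parental libraries of bath-5 held 2.71 CPM in DL238 and 26.1 CPM in N2, and those of math-26 0.163 and 15.3 CPM.

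**Figure D2:**
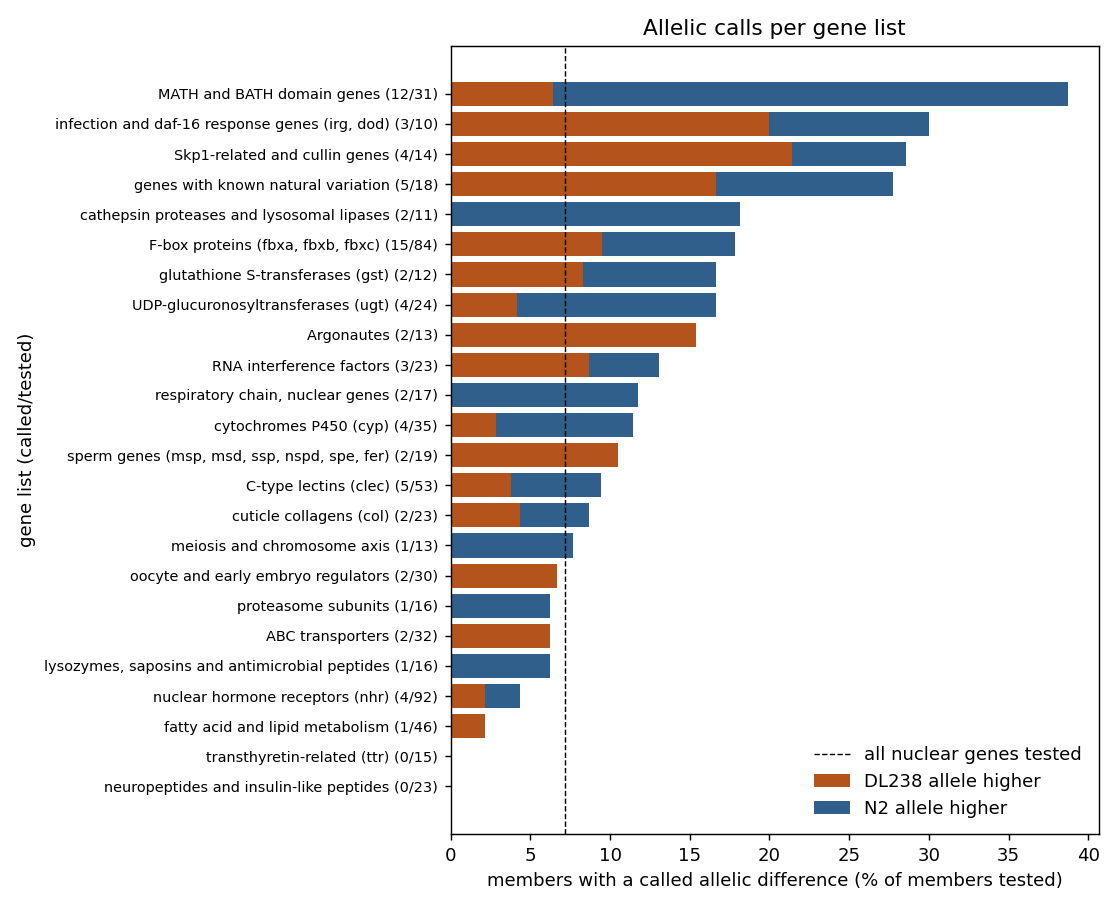
Members of each gene list with a called allelic difference, as a percentage of the members tested, for lists with at least 10 tested members. Segments show which allele was higher, and the dashed line marks the 7.2% of all nuclear genes; MATH and BATH domain genes reach 38.7% and F-box genes 17.9%.

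Genes of the response to microbes were called in both directions. Of the 10 tested irg and dod genes, 2 were called DL238 higher and 1, irg-8, N2 higher (30.0%, against 7.2% of all nuclear genes). dod-19, the neighbour of irg-8, was DL238 higher with 1869, 1929 and 2296 DL238 counts and 1198, 1318 and 1502 N2 counts (0.60 ± 0.08), and irg-7 was called at 0.28 ± 0.04. The lysozyme gene lys-7, the only called gene of 16 lysozymes, saposins and antimicrobial peptides (6.25%), had 22, 24 and 60 DL238 counts and 1231, 1167 and 1367 N2 counts (-5.23 ± 0.31, adjusted p 0.000677). Its parents averaged 11.0 CPM in DL238 and 44.4 CPM in N2. Of 53 C-type lectin genes, which encode putative carbohydrate-binding proteins, 2 were DL238 higher and 3 N2 higher (9.43%, near the 7.2% of all nuclear genes), and 1, 2 and 1 of these 53 were called without F1 replicate 1, 2 and 3. clec-110 had 88, 36 and 73 DL238 counts and 0 N2 counts in all 3 libraries, at least 10.7-fold on its 32 allele-specific reads, and clec-147 was called at -1.59 ± 0.32. pals-4 had 0 DL238 counts in all 3 and 30, 33 and 41 N2 counts, at least 10.7-fold lower from DL238, and is among the genes without a read in the DL238 parents to check it.

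Detoxification genes were called in both directions too. Of 35 cytochrome P450 genes, which encode oxidising enzymes, 1 was DL238 higher and 3 N2 higher (11.4%, against 7.2% of all nuclear genes), and 3 of the 4 stand side by side on chromosome V (3936326 to 3944523). cyp-35A5 had 102, 91 and 141 DL238 counts and 637, 657 and 736 N2 counts (-2.62 ± 0.19). cyp-35B1, the middle gene, was DL238 higher with 519, 547 and 677 DL238 counts, against 202, 171 and 214 N2 counts (1.57 ± 0.18). cyp-35B2 had 155, 166 and 183 DL238 counts and 518, 522 and 615 N2 counts (-1.71 ± 0.17). Nearly all of their allele counts were allele-specific reads, 518 of 519 for the DL238 allele of cyp-35B1 in replicate 1. Of 24 UDP-glucuronosyltransferase genes, whose products attach a sugar to toxins, 1 was DL238 higher and 3 N2 higher (16.7%, against the same 7.2%), with log2 ratios of 1.90 ± 0.38 in ugt-65, -1.68 ± 0.27 in ugt-5 and -2.17 ± 0.38 in ugt-31. Of 12 glutathione S-transferase genes 2 were called (16.7%), and gst-10 was DL238 higher (0.76 ± 0.09). gst-22 had 0, 0 and 1 DL238 counts and 61, 53 and 78 N2 counts, which rest on 1 and 188 allele-specific reads, a ratio of 188 towards N2 (95% exact binomial interval 33.3 to 7465). The ABC transporter gene pgp-9, a P-glycoprotein, had 2483, 2378 and 2934 DL238 counts and 598, 766 and 810 N2 counts (1.85 ± 0.11), and pgp-6 was called at 1.57 ± 0.29, the 2 called among 32 ABC transporters (6.25%, below the 7.2%). Among 92 nuclear hormone receptor genes, transcription factors of which many control metabolism, 2 were DL238 higher and 2 N2 higher (4.35%, below the 7.2% of all nuclear genes). nhr-182 had 360, 376 and 380 DL238 counts and 107, 94 and 91 N2 counts (1.94 ± 0.22). nhr-219 had 56, 64 and 93 DL238 counts and 0, 0 and 1 N2 counts, which rest on 203 and 1 allele-specific reads, a ratio of 203 (95% exact binomial interval 36.0 to 8057). nhr-181 stood the other way at -3.23 ± 0.31.

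Of 13 Argonaute genes 2 were called, both DL238 higher (15.4%), and of 23 RNA interference factors 2 were called DL238 higher and 1 N2 higher (13.0%), against 7.2% of all nuclear genes. wago-1, a secondary Argonaute, had 43495, 42381 and 47336 DL238 counts and 24827, 27308 and 32533 N2 counts (0.66 ± 0.05, adjusted p 0.0019). ergo-1, the Argonaute of the 26G endogenous small RNA pathway, had 17561, 17534 and 20884 DL238 counts and 12177, 12341 and 13522 N2 counts (0.55 ± 0.04). At the eri-6/7 locus on chromosome I, whose separate transcripts are joined by trans-splicing into the mRNA of a helicase of RNA interference, eri-6 was DL238 higher (0.85 ± 0.14) and eri-7 N2 higher (-1.96 ± 0.13). eri-7 had 532, 435 and 713 DL238 counts and 2189, 1986 and 2249 N2 counts. sosi-1, which overlaps eri-6, had 48, 58 and 60 DL238 counts and 0 N2 counts in all 3 libraries, at least 20.3-fold on its 61 allele-specific reads. Its parents averaged 1.37 CPM in DL238 and 0.293 CPM in N2. The meiotic gene him-5, which promotes crossovers on the X chromosome, had 257, 259 and 323 DL238 counts and 663, 688 and 764 N2 counts (-1.34 ± 0.15). The chitin synthase gene chs-1 and the P granule gene pgl-3 were DL238 higher by 0.20 ± 0.04 and 0.22 ± 0.04, the 2 called of 30 oocyte and early embryo regulators (6.67%, below the 7.2% of all nuclear genes).

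Several abundant genes were called at small differences. hsp-60, a mitochondrial chaperonin gene, was DL238 higher (0.29 ± 0.04), as were the fatty acid binding protein gene lbp-9 (0.69 ± 0.04) and the collagen gene col-95 (0.75 ± 0.05). N2 was higher in the collagen gene col-93 (-0.56 ± 0.04), the cathepsin L gene cpl-1 (-0.33 ± 0.04) and the cathepsin B-like gene cpr-9 (-0.44 ± 0.04). The same held for the ribosomal protein gene rps-22 (-0.35 ± 0.03) and the respiratory chain genes cox-4 (-0.31 ± 0.05) and atp-4 (-0.29 ± 0.04). It also held for the proteasome gene rpn-13 (-0.30 ± 0.06) and the histone H3.3 gene his-72 (-0.43 ± 0.05). The value of rpn-13 rests on a mean of only 79 allele-specific reads per library, so its counts are mostly divided reads. Called were 1 of 5 heat shock, 1 of 46 lipid metabolism, 2 of 23 collagen and 2 of 11 cathepsin and lysosomal lipase genes. They were 1 of 7 ribosomal protein, 2 of 17 respiratory chain, 1 of 16 proteasome and 1 of 5 histone genes. For all nuclear genes the share was 7.2%. None of 23 neuropeptide and insulin-like genes, 15 transthyretin-related genes and 8 chemoreceptor genes was called. Lists this small can lack calls at a share of 7.2%, so nothing is read from this. The yolk protein gene vit-5 was called N2 higher by -0.21 ± 0.01 on 499411, 503381 and 602506 DL238 counts and 563106, 592532 and 702255 N2 counts. Its allele-specific reads alone gave 0.63, DL238 higher. The sperm gene msp-56 likewise had a log2 ratio of 1.97 in allele counts and -7.79 in allele-specific reads, of which 0 were from DL238 and 83 from N2. Both genes belong to families of near-identical copies, and no direction is drawn for either. The other called gene of 19 sperm genes was ssp-19 (2.11 ± 0.38). The 2 called are 10.5% of that list, against 7.2% of all nuclear genes. In all, 407 of the 412 genes called with both kinds of count had the same direction, and the others were bcf-1, F46H5.3, gpd-4, msp-56 and vit-5.

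A list of genes known to vary functionally between wild strains, which also held fog-2, had 18 tested members. Of these, 3 were DL238 higher (fog-2, sosi-1 and eri-6) and 2 N2 higher (sup-35 and glc-1). This was 27.8%, against 7.2% of all nuclear genes, and 2 of the 18 were called without each of the F1 replicates in turn. Because sosi-1 overlaps eri-6, these 2 are not separate loci. The fog-2 call sets the DL238 copy against that of the mutant mothers. It is therefore not read as natural variation, although the share of 27.8% includes it. glc-1, a glutamate-gated chloride channel gene at which natural variation affects avermectin response, had 210, 223 and 238 DL238 counts and 426, 387 and 453 N2 counts (-0.91 ± 0.18, adjusted p 0.0421). The germline sex determination gene fog-2 had 1513, 1346 and 1654 DL238 counts and 131, 144 and 92 N2 counts (3.63 ± 0.22, adjusted p 0.000741). The mothers are labelled as fog-2 mutants, so its N2 copy here is that of the mutant strain. In the parental libraries fog-2 did not pass the test, at 39.4 ± 3.5 CPM in DL238 and 42.2 ± 5.1 CPM in the libraries labelled N2 (SD, n = 3 each, adjusted p 0.678), which goes against the deletion in the label. Its neighbours fbxa-113, fbxa-114 and fbxb-59 were also called, with fbxa-113 DL238 higher, fbxa-114 at -3.09 ± 0.23 and fbxb-59 with 0, 1 and 0 DL238 counts and 37, 9 and 20 N2 counts. No call was made for amx-2, trt-1, drh-1, tra-3, rcan-1, nath-10, pot-2, nurf-1, set-24, rhy-1, acd-5 and ppw-1. cysl-2 was not called between the alleles (0.12 ± 0.12, adjusted p 0.643) but was between the parents, with 78.9 CPM in DL238 and 27.4 CPM in N2.

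Pseudogenes by annotation were called in 39 of 181 cases (21.5%), against 377 of 5654 protein-coding genes (6.67%). Of the 422 called genes, 82 overlap another protein-coding gene (19.4%), as do 28.6% of all nuclear genes tested. Called genes were unevenly placed. Chromosome V had 121 called of 1189 tested (10.2%), chromosome II 90 of 1029 (8.75%) and X 26 of 787 (3.30%). The median log2 ratio on X was -0.04. With each chromosome cut into 3 equal lengths, the outer segments held 333 called of 4016 (8.29%) and the central segments 89 of 1844 (4.83%). The left segment of chromosome II had 60 of 366 (16.4%), of which 24 were DL238 higher and 36 N2 higher. The 1 Mb bins from 1 to 4 Mb on that chromosome held 17 of 59, 15 of 80 and 20 of 105 genes, and the bin from 1 to 2 Mb on chromosome III 15 of 90. These shares are descriptions, since neighbouring genes share haplotypes and are not independent.

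**Figure D3:**
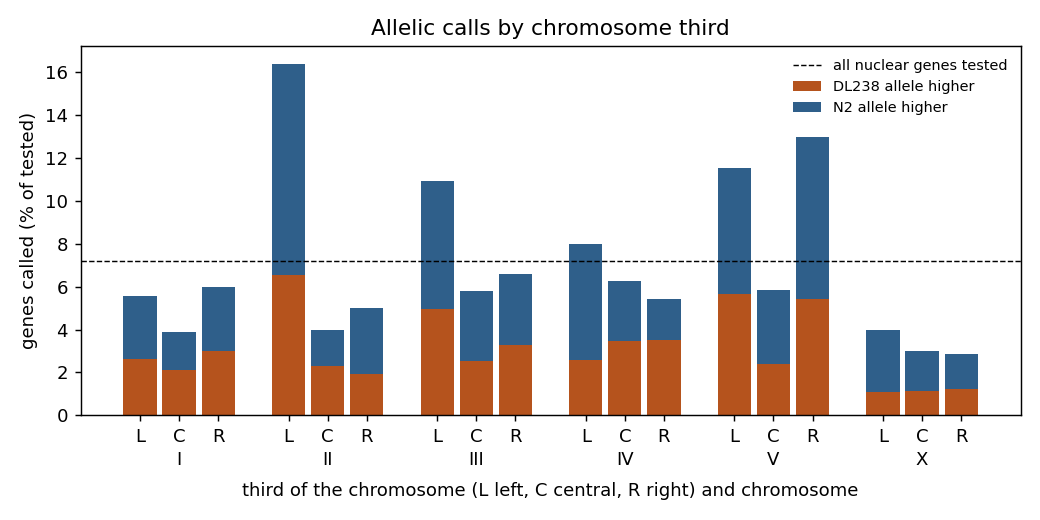
Called genes as a percentage of the nuclear genes tested in the left, central and right segment of each chromosome (3 equal lengths), split by the higher allele. The left segment of chromosome II reaches 16.4% and the right segment of V 13.0%, while no segment of X exceeds 3.96%; the dashed line is the 7.2% of all nuclear genes.

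Called genes were often close together without sharing a direction. Of 72 pairs of consecutive called genes within 10000 bases, 35 had the same direction and 37 opposite ones. The run of dod-19, irg-8 and Y39D8A.1, the cyp-35 run, and C50E3.9 with C50E3.11 each held both directions. Runs with 1 direction included B0281.4, B0281.5 and K09F6.7 on chromosome II, all N2 higher, and lips-15 and lips-16, named for lipases. lips-15 had 3960 DL238 counts in sum and 1 N2 count, which rest on only 43 and 0 allele-specific reads, at least 14.3-fold. Its parents did not pass the test, at 21.0 CPM in DL238 and 22.2 CPM in N2 (log2 difference -0.08).

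The parental comparison asked whether the same genes differ between the strains. Unlike the alleles, the parents differ in their whole genome and in their cells, and in whole-animal RNA fewer cells of a type cannot be told apart from less RNA per cell. Between DL238 and N2 parents, 1352 of the 5860 nuclear genes were called (23.1%), 710 higher in DL238 (12.1%) and 642 lower (11%). With the mitochondrial genes the 1357 calls became 842 without DL238 parental replicate 2, and 884 and 840 without N2 parental replicates 2 and 3. Of the 422 genes with a called allelic difference, 286 were called between the parents in the same direction and 16 in the opposite one. For the 236 of at least 2-fold these numbers were 199 and 3. Over the 422 genes Pearson's r between the allelic and the parental log2 difference was 0.86 (Spearman's rho 0.87), across genes, which are not independent replicates. Over all 5860 it was 0.75 (rho 0.34). In turn, of the 1352 parental calls, 286 had an allelic call of the same direction, and of the 472 of at least 2-fold, 184. The allelic calls come from a fit of only the 3 F1 libraries, so a missing one does not show a trans difference. The allelic and the parental differences come from separate libraries. However, the F1 and the DL238 parental libraries were counted against the same DL238 and N2 transcripts. DL238 reads that match neither would be missing from both, which was not tested.

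**Figure D4:**
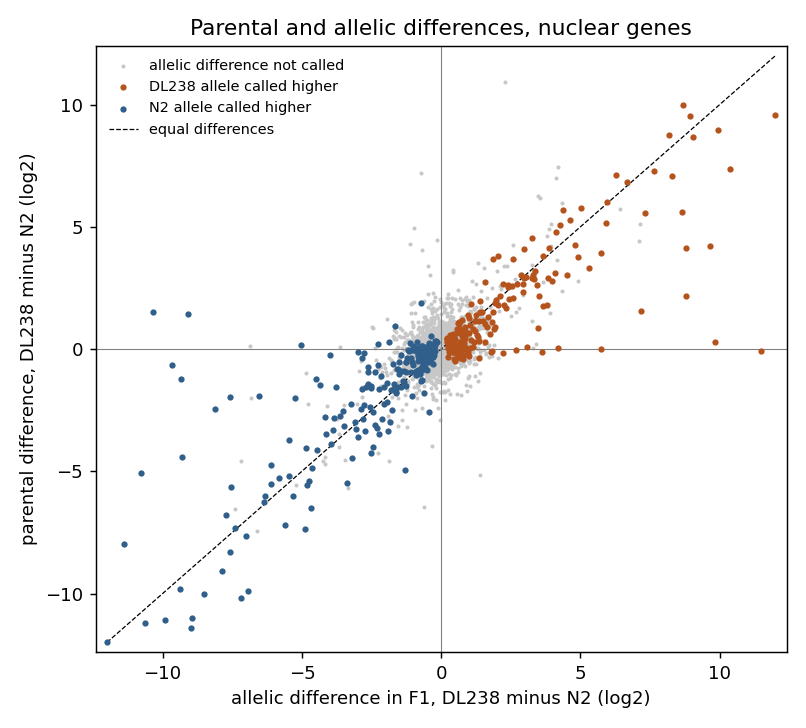
Allelic difference in the F1 (x) and difference between DL238 and N2 parents (y), both as log2 DL238 minus N2, for 5860 nuclear genes; coloured points have a called allelic difference and values beyond 12 are drawn at 12. Many called genes lie near the dashed line of equal differences, and others lie near a parental difference of 0. The median parental difference was 0.75 for genes called DL238 higher and -0.74 for those called N2 higher. The allelic medians were 1.29 and -1.27. The most extreme values come from an allele or parent with few or no counts and depend on the fit's prior count.

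The parental minus the allelic log2 difference, named the trans difference, was tested in 1 model over the 9 libraries and passed for 575 genes (9.79%), 562 of them nuclear (9.59%). The classes combine the parental and trans calls of this model with the allelic calls of the separate fit of the 3 F1 libraries. Together the 3 tests put 227 genes into the class cis only (parental and allelic calls, no trans call) and 273 into trans only. A further 99 were compensatory, with allelic and trans calls but no parental call. There were 55 with cis and trans differences of opposite direction and 20 of the same direction, 4273 with no call and 913 with another combination. A missing call does not show equality. Cis only genes had a median absolute allelic log2 ratio of 2.04, and compensatory genes 0.73. With the allelic calls of the model over the 9 libraries, 477 genes were cis only and 227 trans only. Some classes depended on single libraries: cis only genes numbered 64, 98 and 64 without F1 replicate 1, 2 and 3. Trans only genes numbered 143 without DL238 parental replicate 2, and 151 and 146 without N2 parental replicates 2 and 3.

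Among cis only genes were skr-11, pzf-1, clec-150, epg-3 and bath-5. pzf-1 had an allelic log2 ratio of 1.47 and a parental one of 1.51, with 55.5 CPM in DL238 and 19.4 CPM in N2 parents. In clec-150 the allelic ratio was -1.45 and the parental one -1.56, and its parents held 30.6 CPM in DL238 and 90.4 CPM in N2. Compensatory genes showed the alleles apart and the parents close. The trans difference is the parental minus the allelic one, so an error of allele assignment enters both with opposite signs. In this class were egl-26, set-28, lido-14 and Y38F2AL.6, with checked shares of 12.5%, 8.58%, 20% and 65.3%. How many genes of the class arise from such errors was not tested. rho-1 averaged 209.6 CPM in DL238 and 215 CPM in N2 parents, a parental log2 difference of -0.04, although its alleles differed by -1.05 (trans difference 1.01 ± 0.08, adjusted p 1.22e-05). tcer-1 averaged 263 CPM in DL238 and 248 CPM in N2 parents, with alleles at 0.87 (trans difference -0.79, adjusted p 0.000115). sea-1, rps-22, cox-4, atp-4, cpl-1 and pgp-6 were also in this class, as were the endosomal GTPase gene rab-5 (allelic 0.83, parental 0.02) and the kinetochore gene rod-1 (-0.68 and -0.10).

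Genes with both kinds of difference could have parents further apart than the alleles, or closer. pgp-9 had an allelic log2 ratio of 1.85 and a parental one of 3.67, with 147 CPM in DL238 and 11.6 CPM in N2. cyp-35B1 had 1.57 and 2.76, with 23.3 CPM in DL238 and 3.44 CPM in N2 parents. irg-8, math-26, col-95 and C16A11.5 were in the same class. In lys-7 the allelic ratio of -5.23 exceeded the parental one of -2.02 (trans difference 3.18, adjusted p 0.000101). cyp-35A5 showed -2.62 between the alleles and -0.71 between the parents, and eri-7 showed -1.96 and -1.39. skr-1 was 1 of the 16 genes with opposite called directions, at 1.36 between the alleles and -0.36 between the parents (trans difference -1.72, adjusted p 6.22e-08), and so was dod-19, at 0.60 and -0.28.

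The other crosses of the study have the same design with another wild strain, and their F1 libraries are separate. All share the N2 strain as the comparison. Of the 328 called genes that were also tested in the CB4856 cross, 141 were called there in the same direction and 7 in the opposite one, where 7.82% of all genes tested were called in either direction. For ECA722 these numbers were 123 and 24 of 369 (9.76%), and for EG4348 105 and 13 of 227 (8.43%). For QX1211 they were 140 and 24 of 361 (11.4%), for ECA701 150 and 34 of 358 (13.8%) and for XZ1516 144 and 34 of 361 (17.3%). Of the 158 called genes tested in all 6 other crosses, 36 were called the same way in none of them, which does not show that those genes differ from the other strains. A test of the difference between crosses called 192 of 4384 genes against CB4856 (4.38%) and 461 of 5126 against ECA722 (8.99%). The first count was 117 and 124 without DL238 F1 replicates 1 and 3 and 124 without CB4856 F1 replicate 2, and the second was 275 without ECA722 F1 replicate 2.

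In 13 genes the same direction was called in DL238 and all 6 other crosses, 10 of them with the wild allele higher. Every cross shares the N2 allele sequences and the fog-2 mutant mothers, so agreement between crosses is not independent. The nuclear export factor gene xpo-2 had 20388, 21837 and 24559 DL238 counts and 1593, 776 and 1384 N2 counts (4.20 ± 0.22), and its log2 ratio was 0.26 to 5.02 in the other crosses. Only 249 DL238 and 0 N2 reads of xpo-2 were allele-specific, at least 83.0-fold in those reads, so its counts are mostly divided reads. Its parents averaged 321 CPM in DL238 and 312 CPM in N2 (log2 difference 0.04). Whether N2 reads of xpo-2 reach its N2 allele was not checked. mcm-4, a subunit of the replicative helicase, had 0.74 ± 0.04, and T16H12.1 had 3.35 ± 0.13 on 1794, 1659 and 1926 DL238 counts and 168, 182 and 177 N2 counts. The neuropeptide receptor gene npr-20 had 111, 115 and 119 DL238 counts and no N2 count, at least 20.0-fold on its 60 allele-specific reads, with 2.49 CPM in DL238 and 2.05 CPM in N2 parents. Also wild-allele higher were Y48G1BL.5, hphd-1, pxl-1, K11H3.8, F10D2.8 and fog-2. N2 was higher in C23H5.8 (-1.82 ± 0.11), in F13E6.1 (-1.51 ± 0.11) and in F18E9.7. F18E9.7 had 0 DL238 counts in all 3 libraries and 262, 100 and 124 N2 counts. It was at least 33.0-fold lower from DL238 on its 99 allele-specific reads. The DL238 parental libraries averaged 1.73 CPM of F18E9.7 and gave 100% of its 72 allele-specific reads to DL238. F13E6.1 and F18E9.7 lie on the X chromosome, of which F1 males would carry only the N2 copy. Whether any males were among the F1 animals, all described as hermaphrodites, was not tested. Of these 13, xpo-2, npr-20, hphd-1, pxl-1, fog-2 and F18E9.7 were in the compensatory class, with no parental call. For fog-2 neither this class nor the agreement between crosses can be read as that of the N2 gene, since the N2 copy of every F1 is that of the mutant mothers, whereas the parental libraries labelled N2 held 402, 946 and 991 N2-specific reads of fog-2.

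**Figure D5:**
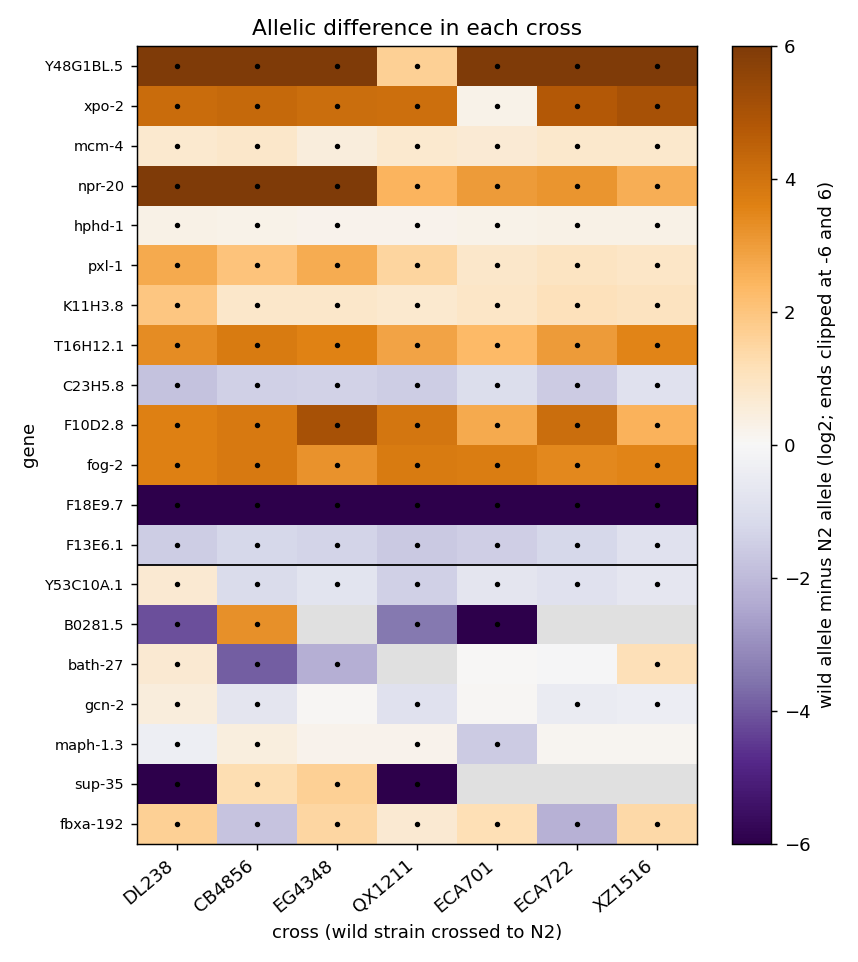
Allelic log2 difference, wild minus N2 allele, in the DL238 cross and the 6 other crosses; dots mark calls and grey cells genes not tested there. Above the line are the 13 genes called the same way in all 7 crosses, and below it the 7 genes called in opposite directions in the DL238 and CB4856 crosses, such as sup-35, at -8.96 in DL238 and 1.24 in CB4856.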

How the data were processed

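Whole-animal polyadenylated RNA was sequenced from directional libraries, and RNA was extracted in 3 batches with 1 replicate per strain each, per the labels' protocols, which do not tie batches to replicate numbers. The authors deposited expected counts per gene and allele, made with Salmon 1.4 and emase-zero, and expected counts from kallisto, per the submitters' processing notes and the column headers. The other deposited values used were fragment numbers of Salmon's equivalence classes, per the file headers, and transcript lengths. The notes also list Trimmomatic 0.39, FastQC, DESeq2 1.42.0 and the build ce11 (WBcel235). The emase-zero counts divide reads that match both alleles, so an allele count is an estimate that rests on the allele-specific reads. The second allele named in the libraries labelled N2 is QX1211, and their totals over both alleles were used.

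Gene names, biotypes and positions come from the Ensembl annotation of WBcel235, to which transcripts were joined by name. Those absent under their exact name were matched through their isoform or sequence name, and 38 of 130338 transcripts stayed unmatched. Counts were rounded and tested with edgeR 4.0.16 in R 4.3.3 (quasi-likelihood, Benjamini-Hochberg threshold 0.05). The allelic fit had 6 columns, a library term and 1 library size for both alleles, which leaves 2 residual degrees of freedom. Parental and trans contrasts came from 1 model of 12 columns with TMM scaling, and crosses were compared by an interaction term. Alternatives were DESeq2 1.42.0, other minima, allele-specific reads alone, TMM per allele, and leaving out libraries. Data were simulated at the real means by drawing allele counts directly, so the error of dividing shared reads is not covered. In them the allelic test recovered 66% of 100 genes changed by 2-fold and 83% of those changed by 4-fold among 5873 genes. It made 16 false calls, beside 74.5% of the 200 changed genes recovered. The trans test recovered 65% and 86% with 5 false calls.

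Genes named were the 6 with the largest ratio in each direction with at least 100 allele-specific reads and at least 90% assigned correctly in DL238 parents, the 5 class-named genes in each direction with at least 1000 reads, up to 3 called members per list by adjusted p, and genes known to vary between wild strains. Since the N2 side of the first group was mitochondrial, 6 nuclear genes were added after their values were seen, as were further list members and the genes shared by crosses. Members and lists were chosen with earlier results of these data known. Without molecular identifiers PCR copies count as reads, and intervals and floors (3 allele-specific reads over the group's libraries) therefore cover counting error alone. No sequences are printed.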

Additional observations from a re-analysis of the deposited data

Results flagged for a closer look

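The allelic difference of a gene was tested for a difference between the DL238 cross and the CB4856 or ECA722 cross with an interaction term (edgeR, Benjamini-Hochberg threshold 0.05). It differed for 192 genes between the DL238 and the CB4856 cross and for 461 between the DL238 and the ECA722 cross. The crosses share no library. Each gene below was called in both crosses of its pair, in opposite directions, and differed between them.

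Between DL238 and CB4856 there were 7 such genes. sup-35 had a log2 ratio of wild over N2 allele of -8.96 in the DL238 cross and 1.24 in the CB4856 cross, a difference of -10.18, on 1 DL238 and 411 N2 allele-specific reads in the DL238 cross. B0281.5 stood at -4.15 in DL238 and 3.24 in CB4856, a difference of -7.34. bath-27 was DL238 higher at 0.69 and CB4856 lower at -3.92, a difference of 4.61. The F-box gene fbxa-192 stood at 1.67 in DL238 and -1.75 in CB4856, a difference of 3.42. Y53C10A.1 differed by 1.79, the translation regulator kinase gene gcn-2 by 1.19 and maph-1.3 by -0.78.

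Between DL238 and ECA722 there were 24, among them fbxa-157, at 3.50 in DL238 and -8.63 in ECA722, and the following 8. cyp-35B1 stood at 1.57 in DL238 and -5.35 in ECA722, a difference of 6.92. skr-11 stood at 3.31 in DL238 and -2.05 in ECA722, a difference of 5.35. math-27 differed by -5.58 and fbxa-192 by 3.91. eri-6 differed by 1.86, dod-19 by 1.55, cox-4 by -0.80 and vit-5 by -0.73, the last with the doubt about its direction given above.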

How the results depend on the processing

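Counts in this paragraph include the 13 mitochondrial genes. The 435 allelic calls (189 DL238 higher, 246 N2 higher) were 446 with TMM per allele, 487 with a minimum of 30 reads, 406 among genes with at least 90% assigned correctly and 430 among genes of like transcript length. They were 655 with DESeq2 (284 and 371), 128 with at least 1 allele-specific read (50 and 78), 1043 with allele-specific reads only (478 and 565), 1012 with no replicate block, that is without the library term (446 and 566), and 1171 in the 12-column fit (526 and 645, chosen after seeing the data). Without each F1 replicate they were 145 to 201 (57 to 84, and 88 to 117). The 82 called list members (36 and 46) were 203 with allele-specific reads only (102 and 101), 198 in the 12-column fit (93 and 105), and 32 to 46 without each F1 replicate (13 to 19, and 19 to 27).

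The 1357 parental calls became 3986 with the default count filter on more genes (1823 DL238 higher, 2163 N2 higher) and 2716 with the replicate block (1403 and 1313). Same-numbered parental libraries deviated from their group means with correlations of 0.34, -0.09 and 0.43, so the numbers were not taken to pair them, and DL238 replicate 2 did not correlate best with its own number.

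Without 1 library each, parental calls were 840 to 1275 (422 to 699 DL238 higher, 403 to 576 N2 higher), lowest without N2 parental replicate 3, and the 575 trans calls 331 to 652 (187 to 386 above 0, 142 to 285 below 0). The same changes gave 64 to 223 cis only genes, 143 to 315 trans only, 9 to 22 cis and trans in the same direction, 27 to 51 in opposite directions, 25 to 103 compensatory, 4095 to 4833 with no call and 523 to 1285 with another combination. With the allelic call of the 12-column fit they were 477 cis only, 227 trans only, 45 in the same direction and 194 compensatory. The 192 genes that differed from the CB4856 cross were 296 with DESeq2 (142 DL238 relatively higher, 154 lower), 382 with no replicate block (180 and 202) and 117 to 144 without 1 library (55 to 70, and 61 to 74). The 461 that differed from the ECA722 cross were 837 with no replicate block (348 and 489) and 275 to 383 without 1 library (122 to 167, and 153 to 216).

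With allele-specific reads only, msp-56 reversed to -7.79, vit-5 to 0.63, F46H5.3 to 1.75, bcf-1 to 2.65 and gpd-4 to -1.23. Of the 117 called genes named, all passed with DESeq2, and 57 no longer did with at least 1 allele-specific read, where more genes were tested. The cause of the other changes was not tested. Allele-specific reads, 5.53% to 5.65% of fragments, limit which genes could be tested, and 2 residual degrees of freedom limit which small differences could be called.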
